A study of Homo sapiens with 6 samples.

Results

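The 10 genes described here carry out the uptake, storage, release and export of cellular iron, or regulate these steps. They are TFRC, STEAP3, SLC11A2, FTH1, FTL, NCOA4, HMOX1, SLC40A1, ACO1 and IREB2, and each was found once, by its symbol, among the 58735 gene rows of the expression table. RNA was sequenced from MDA-MB-231, an established line of human breast adenocarcinoma cells of basal-like type, in 6 libraries. Of these, 3 came from unirradiated cells (0 Gy). The other 3 came from cells exposed to 10 Gy from a 137Cs irradiator at 1.7 Gy/min, with RNA taken 24 h later. The genotype is labelled WT, while the library names carry the code SCR. The study's control cells carry a non-targeting hairpin (shSCR), and whether these libraries came from them is not settled by the labels. Genotype and code were the same at both doses, so no knockdown is compared here. The labels do not say that the 3 libraries of a dose came from separate cultures, so the p-values measure the spread between these libraries, which may be technical.

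Cells take up iron mostly as transferrin bound to the transferrin receptor. Within the endosome the iron is reduced and pumped into the cytosol, where it is used, stored inside the ferritin shell or exported through ferroportin. Ferritin iron returns to the cytosol when the shell is delivered to the lysosome, and heme iron returns when heme is cleaved. The iron regulatory proteins bind a short hairpin in several of these mRNAs when iron is scarce, which blocks translation from a 5′ UTR and protects the mRNA from decay through a 3′ UTR. The labile iron of this cycle feeds lipid peroxidation, the process behind ferroptosis that the study set out to follow in breast cancer cells.

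The hairpin, the iron-responsive element (IRE), is shown here because a set form of it was matched in 4 of the 10 genes. GENCODE 29 protein-coding transcripts on GRCh38 were searched for a stretch of 25 bases with a bulged C, 5 paired bases above it, at least 3 of 4 paired bases below it and the loop CAGTGN, where N is not G. This search was added after the reference was seen. A match was found in 35 of 19669 genes (0.178%), among them FTH1, FTL, SLC40A1 and TFRC. Each sequence below is written 5′ to 3′ on the strand of its gene, and capitals mark the loop of 6 bases.
FTH1 IRE: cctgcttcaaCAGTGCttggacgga
FTL IRE: cttgcttcaaCAGTGTttggacgga
SLC40A1 IRE: acttcagctaCAGTGTtagctaagt
TFRC IRE a: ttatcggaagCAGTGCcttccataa
TFRC IRE b: ttatcgggagCAGTGTcttccataa
TFRC IRE c: gtatcggagaCAGTGAtctccatat
TFRC IRE d: ttatcgggaaCAGTGTttcccataa
The FTH1 match lay at chr11:61967576-61967600 on the minus strand and the FTL match at chr19:48965337-48965361 on the plus strand, both in the 5′ UTR. They lay within exon 1 as numbered in transcripts FTH1-203 and FTL-201. The SLC40A1 match lay at chr2:189580663-189580687 on the minus strand, also in the 5′ UTR within exon 1. The TFRC matches, a to d, lay in the 3′ UTR on the minus strand, within exon 18 as numbered in transcript TFRC-203. Their places were chr3:196050981-196051005, chr3:196050577-196050601, chr3:196050512-196050536 and chr3:196050465-196050489. The letters a to d give the order of these matches along the mRNA and are not established names of TFRC hairpins. For the other members these letters and pairs were not found in the transcripts searched, which says nothing about hairpins of another form. Further hairpins of another form in the matched genes, TFRC among them, would also be missed.

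Reads recovered from the deposited values summed to between 15643641 and 28861781 per library. Markers of basal-like mesenchymal cells were expressed in every library, 5 of 5 at a mean of at least 1 FPKM, with a summed level of 779 to 789 FPKM at 0 Gy and 622 to 641 FPKM at 10 Gy. Of 4 luminal markers, GATA3 alone reached 1 FPKM, PGR was listed at 0 in every library, and the summed level was 2.84 to 3.23 FPKM at 0 Gy and 2.76 to 3.28 FPKM at 10 Gy. Of 3 markers of other cell types (PTPRC, PECAM1 and ALB), PECAM1 alone reached 1 FPKM, and the summed level was 1.23 to 1.24 FPKM at 0 Gy and 1.90 to 1.98 FPKM at 10 Gy. The part of these shifts in the changes of the iron genes was not tested.

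Expression of the iron genes spanned a wide range in unirradiated cells. FPKM, fragments scaled to gene length and to a depth set for each library, is a level per length. The order between genes thus depends on the length taken for each, such as 878 bases for FTL and 10806 for IREB2. The ferritin light chain FTL was the gene with the second highest mean of the whole table at 0 Gy, at 3611 FPKM, and ranked 4 at 10 Gy. The order at 0 Gy ran from FTL through FTH1, TFRC, NCOA4, ACO1, STEAP3, HMOX1, SLC11A2 and IREB2 to SLC40A1, and no neighbours in it overlapped over their 3 libraries. At 10 Gy the order held down to STEAP3, after which came IREB2, SLC11A2, HMOX1 and SLC40A1, with SLC11A2 and HMOX1 overlapping.

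**Figure D1:**
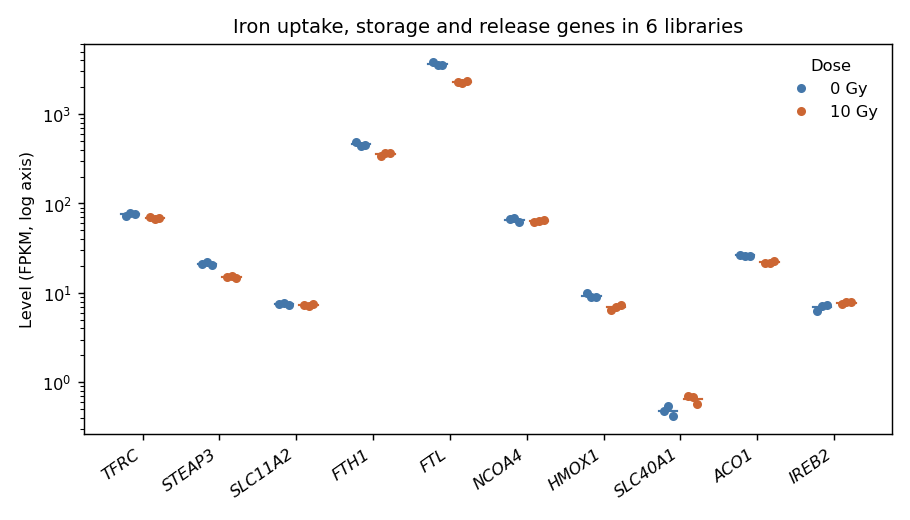
Level of each of the 10 iron genes in FPKM, on a log axis, in each of the 3 libraries at 0 Gy (blue) and the 3 at 10 Gy (orange). Points are libraries and short lines are group means, and the points of FTL, FTH1, STEAP3, HMOX1 and ACO1 lie lower at 10 Gy without overlap while those of SLC11A2 and NCOA4 overlap.

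On the deposited FPKM scale, ferritin, STEAP3, HMOX1, ACO1 and TFRC mRNA stood lower in irradiated than in unirradiated libraries. The change of TFRC was small, and it was called in 8 of 17 alternative analyses. A gene was called at a Benjamini-Hochberg adjusted p under 0.05 in limma, fitted over the 12128 genes that averaged 1 FPKM or more, which 9 of the 10 iron genes did. Of these, 6 were called, all lower at 10 Gy, where 35.6% of all tested genes were called and 23.7% were called lower. A higher call was made for 0 of 9 against 11.9% of all tested genes, and 1 of 9, IREB2, was higher at an unadjusted p under 0.05 and was also called by limma's voom on recovered reads. A fall of at least 1.3-fold on the deposited scale was found for 3 of 9, FTL, STEAP3 and HMOX1, against 2.95% of all tested genes. On the deposited scale the libraries of the 2 doses did not overlap for 7 of 9 genes, against 51.9% of all tested genes. The median log2 fold change of the 9 genes was -0.24, beside -0.04 over all tested genes. As RNA came from whole cultures, fewer cells of a kind and less RNA per cell cannot be told apart in any of these values.

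The direction over all genes depended on the scaling between libraries. The depth behind the deposited values was 0.973 to 0.991 of the recovered reads at 0 Gy. At 10 Gy it was 1.03 to 1.04, which lowers every irradiated value against the unirradiated ones. Voom used the same depth, and fold changes per recovered read were not tested. Calls were lower for 66.6% of the called genes on the deposited scale, for 36.1% after upper quartile scaling and for 23.1% on the TPM scale, where 16391 genes passed the minimum in place of 12128. Over the same 12128 genes, the median log2 fold change moved by 0.12 on the TPM scale and by 0.075 after upper quartile scaling. Of the 6 called iron genes, FTL, FTH1, STEAP3, HMOX1 and ACO1 were called lower on all these scales, and TFRC was not. With 1 added before the log, FTL alone of the members fell by at least 1.3-fold after upper quartile scaling (-0.57) and on the TPM scale (-0.53). STEAP3 was at -0.375 and -0.355 there, and HMOX1 at -0.30 and -0.29, short of that limit. The added 1 makes such changes smaller. On the deposited scale STEAP3 went from -0.46 to -0.49 with 0.1 added in its place. Whether STEAP3 passes the limit after upper quartile scaling with less added was not tested. Relative to the median of those 12128 genes, the log2 fold change of FTL was -0.62 on the deposited scale and -0.61 on the TPM scale. Set against that median on the TPM scale, the change was -0.43 for STEAP3, -0.37 for HMOX1, -0.30 for FTH1, -0.20 for ACO1 and -0.088 for TFRC. On the deposited scale the same differences were -0.42, -0.34, -0.31, -0.20 and -0.099. IREB2 stood above the median by 0.20 on the deposited scale and by 0.22 on the TPM scale.

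**Figure D2:**
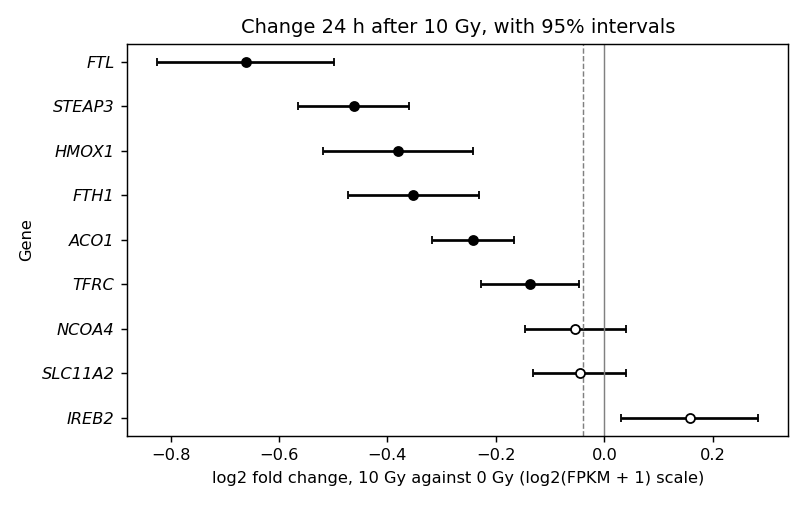
Log2 fold change (10 Gy against 0 Gy, on the log2(FPKM + 1) scale) of the 9 tested iron genes, with bars for the 95% interval from limma, filled points for an adjusted p under 0.05 and a dashed line at the median of all tested genes (-0.04). The changes ran from -0.66 for FTL to 0.16 for IREB2, and the intervals of NCOA4 and SLC11A2 include 0.

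Of the uptake genes, STEAP3 had the largest fall and SLC11A2 was not called. STEAP3 encodes the endosomal ferrireductase that converts ferric to ferrous iron after transferrin uptake, and lies at chr2:119223831-119265652 on the plus strand. Its level was 21.1, 22.3 and 20.3 FPKM in the 3 libraries at 0 Gy and 15.1, 15.6 and 14.6 FPKM at 10 Gy. All 3 irradiated libraries were thus below the lowest unirradiated one, and the mean moved from 21.2 ± 1.03 to 15.1 ± 0.469 FPKM (SD, n = 3). Its log2 fold change was -0.46 (SE 0.043, 95% interval -0.56 to -0.36, limma adjusted p = 0.000707), and STEAP3 was called in 17 of 17 alternative analyses.

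TFRC encodes the transferrin receptor and lies at chr3:196027183-196082189 on the minus strand. Its level was 73.1, 79.1 and 76.8 FPKM at 0 Gy and 71.0, 67.7 and 69.1 FPKM at 10 Gy. The doses did not overlap on this scale, but the highest irradiated library was close to the lowest unirradiated one. As a share of recovered reads the doses did overlap. There 10 Gy replicate 1 (16755 of 28861781 reads) stood above 0 Gy replicate 1 (12301 of 21928560). The means were 76.4 ± 3.01 and 69.3 ± 1.67 FPKM (SD, n = 3). For TFRC the log2 fold change was -0.14 (SE 0.038, 95% interval -0.23 to -0.05, limma adjusted p = 0.0291). The call was lost in 9 of 17 alternative analyses, among them the TPM scale, where the log2 fold change was -0.011 (limma adjusted p = 0.879, against 0.00637 to 0.879 over the alternatives), and each analysis that left out a library other than 0 Gy replicate 1. Without each of these 5 libraries the adjusted p was 0.0722 (0 Gy replicate 2), 0.0733 (0 Gy replicate 3), 0.0569 (10 Gy replicate 1), 0.107 (10 Gy replicate 2) and 0.0822 (10 Gy replicate 3), all from limma.

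SLC11A2 encodes the divalent metal transporter DMT1, which moves ferrous iron out of the endosome, and lies at chr12:50979401-51028566 on the minus strand. Its level was 7.45, 7.65 and 7.40 FPKM at 0 Gy and 7.24, 7.06 and 7.42 FPKM at 10 Gy. The doses overlapped, since the highest irradiated library exceeded the lowest unirradiated one. On the log2 scale the change was -0.045 (SE 0.037, limma adjusted p = 0.364), and its 95% interval ran from -0.13 to 0.04, within which a change of 1.3-fold does not lie. The sign turned after upper quartile scaling (0.036) and on the TPM scale (0.074), and the gene was called in 0 of 17 alternative analyses.

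Both ferritin subunits fell, the light chain more than the heavy chain. FTL encodes the light chain, which supports mineral formation in the shell, and lies at chr19:48965301-48966878 on the plus strand with its IRE near the 5′ end. Its level was 3847, 3491 and 3496 FPKM at 0 Gy and 2253, 2226 and 2364 FPKM at 10 Gy. Every irradiated library lay far below every unirradiated one, and the mean fell by 36.8%, from 3611 ± 204 to 2281 ± 73.3 FPKM (SD, n = 3). This gave a log2 fold change of -0.66 (SE 0.069, 95% interval -0.82 to -0.50, limma adjusted p = 0.000983). Between 35675 and 72025 reads lay behind each library's value. The call was lost in 1 of 17 alternative analyses, the one with no filter on low genes (limma adjusted p = 0.0832, against 5.45e-09 to 0.0832 over the alternatives), with the fold change itself unaltered.

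FTH1 encodes the heavy chain, the ferroxidase subunit that oxidizes incoming ferrous iron, and lies at chr11:61959718-61967660 on the minus strand. Its level was 483, 443 and 450 FPKM at 0 Gy and 341, 368 and 368 FPKM at 10 Gy. No libraries overlapped between doses, and the mean fell by 21.7%, from 459 ± 21.4 to 359 ± 15.2 FPKM (SD, n = 3). FTH1 had a log2 fold change of -0.35 (SE 0.051, 95% interval -0.47 to -0.23, limma adjusted p = 0.00287), which stands just under the 1.3-fold limit, and FTH1 was called in 17 of 17 alternative analyses.

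The summed ferritin level was 4330, 3934 and 3946 FPKM at 0 Gy and 2595, 2594 and 2732 FPKM at 10 Gy. Ferritin mRNA took 0.389% to 0.424% of all recovered reads at 0 Gy and 0.277% to 0.290% at 10 Gy. Ferritin has many processed pseudogenes, and the 41 pseudogene rows named FTH1P or FTLP held 0.285% to 0.414% of the ferritin reads. How reads that fit both a ferritin gene and a pseudogene were assigned is not given in the sources used here. Reads lost or moved by that step were not measured.

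The ferritin subunits were also compared within each library, where the scaling between libraries cancels. The ratio of FTH1 to FTL was 0.126, 0.127 and 0.129 at 0 Gy and 0.152, 0.165 and 0.155 at 10 Gy. The ratio was higher in all 3 irradiated libraries, with means of 0.127 ± 0.00156 and 0.157 ± 0.00712 (SD, n = 3) and a difference of 0.31 on the log2 scale. In a two-sided exact permutation test p was 0.1, the smallest that 3 libraries against 3 can give, and 0.1 after Benjamini-Hochberg adjustment over the 3 ratios tested. The same p holds for both ratios that follow, so none of the 3 could reach 0.05.

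TFRC and ferritin carry their IREs at opposite ends of the mRNA, and their ratio sets the mRNA of an uptake gene against that of the storage genes. Iron and protein levels are not part of these data. The ratio of TFRC to summed ferritin was 0.0169, 0.0201 and 0.0195 at 0 Gy and 0.0274, 0.0261 and 0.0253 at 10 Gy. Every irradiated library exceeded every unirradiated one, and the mean ratio rose 1.40-fold, from 0.0188 ± 0.00170 to 0.0263 ± 0.00105 (SD, n = 3), or 0.49 on the log2 scale (exact permutation p = 0.1). In the mean, TFRC itself fell by 9.25%, where FTL fell by 36.8% and FTH1 fell by 21.7%.

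**Figure D3:**
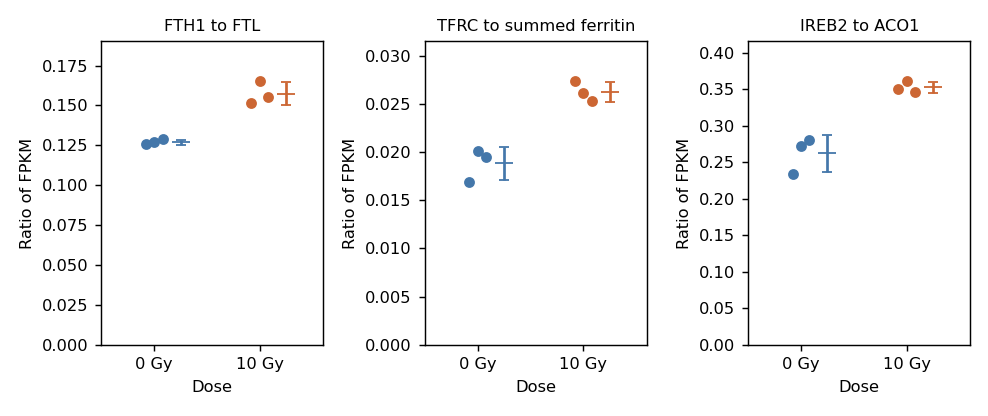
Ratios of FPKM within a library for FTH1 to FTL, TFRC to summed ferritin (FTH1 plus FTL) and IREB2 to ACO1, with points for the 3 libraries at 0 Gy (blue) and at 10 Gy (orange) and bars for the mean and SD. In all 3 panels the irradiated libraries lie above the unirradiated ones, with means of 0.157 against 0.127, 0.0263 against 0.0188 and 0.353 against 0.262.

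The genes of iron release differed. HMOX1 encodes heme oxygenase 1, the inducible enzyme that cleaves heme and frees its iron, and lies at chr22:35380361-35394214 on the plus strand. Its level was 9.92, 9.04 and 8.89 FPKM at 0 Gy and 6.41, 6.95 and 7.34 FPKM at 10 Gy. All irradiated libraries were lower, and the mean moved from 9.28 ± 0.560 to 6.90 ± 0.465 FPKM (SD, n = 3). HMOX1 had a log2 fold change of -0.38 (SE 0.059, 95% interval -0.52 to -0.24, limma adjusted p = 0.00351), just past the 1.3-fold limit on the deposited scale. On the TPM scale it was -0.29, short of that limit, and the gene was called in 17 of 17 alternative analyses.

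NCOA4 encodes the receptor that carries ferritin to the autophagosome and so to the lysosome, and lies at chr10:46005088-46030714 on the minus strand. Its level was 66.9, 68.4 and 62.6 FPKM at 0 Gy and 62.1, 63.7 and 64.6 FPKM at 10 Gy. The doses overlapped, with 0 Gy replicate 3 inside the range of the irradiated libraries. NCOA4 had a log2 fold change of -0.054 (SE 0.040, 95% interval -0.15 to 0.04, limma adjusted p = 0.324), its sign turned after upper quartile scaling (0.037) and on the TPM scale (0.074), and it was called in 0 of 17 alternative analyses.

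SLC40A1 encodes ferroportin, the iron exporter, and was the member expressed least. It lies at chr2:189560579-189583758 on the minus strand, and it stayed under the minimum of 1 FPKM, so no test was made on it in the analysis reported here. Its level was 0.476, 0.541 and 0.416 FPKM at 0 Gy and 0.703, 0.683 and 0.565 FPKM at 10 Gy. These values rest on 44, 36 and 39 reads at 0 Gy and on 91, 54 and 53 reads at 10 Gy. The irradiated libraries were all higher, with means of 0.478 ± 0.0626 and 0.650 ± 0.0744 FPKM (SD, n = 3), and the difference was 0.16 on the log2(FPKM + 1) scale. Without the filter on low genes it was not called (limma adjusted p = 0.286, against 0.106 on the TPM scale, the only other alternative that tested it).

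Of the genes of the iron regulatory proteins, ACO1 fell and IREB2 missed the threshold. ACO1 encodes iron regulatory protein 1, which is the cytosolic aconitase when it holds an iron-sulfur cluster, and lies at chr9:32384603-32454769 on the plus strand. Its level was 26.9, 26.1 and 25.8 FPKM at 0 Gy and 21.7, 21.8 and 22.6 FPKM at 10 Gy. The libraries of the doses lay well apart, with means of 26.3 ± 0.551 and 22.0 ± 0.535 FPKM (SD, n = 3). ACO1 had a log2 fold change of -0.24 (SE 0.032, 95% interval -0.32 to -0.17, limma adjusted p = 0.00216), and ACO1 was called in 17 of 17 alternative analyses.

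IREB2 encodes iron regulatory protein 2, which is degraded when iron is plentiful, and lies at chr15:78437431-78501456 on the plus strand. Its level was 6.28, 7.10 and 7.23 FPKM at 0 Gy and 7.59, 7.88 and 7.83 FPKM at 10 Gy. All 3 irradiated libraries were above the unirradiated ones, with means of 6.87 ± 0.516 and 7.77 ± 0.160 FPKM (SD, n = 3). IREB2 had a log2 fold change of 0.16 (SE 0.054, 95% interval 0.03 to 0.28) and missed the threshold (limma adjusted p = 0.0567), while it was called higher in 5 of 17 alternative analyses (limma adjusted p from 0.0112 to 0.148 over the alternatives). The ratio of IREB2 to ACO1 was 0.234, 0.272 and 0.280 at 0 Gy and 0.350, 0.361 and 0.346 at 10 Gy. It was higher in all irradiated libraries, 1.35-fold in the mean and 0.40 on the log2(FPKM + 1) scale (exact permutation p = 0.1).

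Genes that overlap a member could add reads to it, as the counting program and its use of strand are not given in the sources used here. In all, 6 gene rows overlapped 5 members: RNU7-18P and AC024937.1 at TFRC, BEST1 at FTH1, RNU6-87P at SLC11A2, STEAP3-AS1 at STEAP3 and AC027228.1 at IREB2. None exceeded 2.10 FPKM or 11 reads in any library.

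RefSeq promoter windows (GRCh38.p14, 250 bases before to 50 after the start) were found for 8 of the 10 members, with 13 windows in all. FTH1 and HMOX1 had no window and were not searched. The antioxidant response element core TGACNNNGC, searched on both strands, occurred in 13.3% of 35116 windows and, among the members, in NCOA4. The small MAF recognition core TGCTGA, searched on both strands, occurred in 17.3% of windows and in none of the members' 13. The loop letters CAGTGN, searched on the gene strand alone, occurred in 32.1% of windows and in those of FTL, NCOA4 and TFRC. These matches describe letters in a window and not sites of binding.

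The other genes of iron handling were read from the same fit, in 3 lists. Of 26 further genes of iron transport, chaperoning and hormonal control, 14 were tested, 5 were called higher and 5 lower (11.9% and 23.7% of all tested genes), and the median log2 fold change was 0.11. On the TPM scale 7 of the 14 were called higher and 1 lower, where the shares of all genes tested on that scale were 19.7% and 5.93%. LRP1, an endocytic receptor that also takes up heme bound to hemopexin, rose from 3.01 ± 0.231 to 5.62 ± 0.558 FPKM (SD, n = 3), a log2 fold change of 0.72 (SE 0.075, limma adjusted p = 0.000964).

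PCBP1, a chaperone that delivers iron to ferritin, was also lower after irradiation. Its level was 92.4, 89.4 and 92.1 FPKM at 0 Gy and 65.8, 64.5 and 63.4 FPKM at 10 Gy, without overlap. The log2 fold change was -0.49 (SE 0.030, limma adjusted p = 0.000346), and it was called lower after upper quartile scaling (-0.40) and on the TPM scale (-0.37). The related chaperone PCBP2 fell from 22.3 ± 0.537 to 19.0 ± 0.757 FPKM (SD, n = 3), a log2 fold change of -0.22 (limma adjusted p = 0.00537) that was not called on the TPM scale (-0.10). SLC39A14, a zinc and iron importer, had 28.7 ± 0.867 FPKM at 0 Gy and 29.2 ± 0.687 FPKM at 10 Gy (SD, n = 3) and was not called (limma adjusted p = 0.604), but was called higher on the TPM scale (0.15).

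Of 17 genes of heme synthesis, breakdown and transport, 16 were tested, 3 were called lower and 0 higher, none by 1.3-fold, with a median log2 fold change of -0.09. Among all tested genes 23.7% were called lower and 11.9% higher. In limma, 1 heme gene was higher at an unadjusted p under 0.05, and voom on recovered reads called 0 higher and 5 lower. Voom called 1818 of all 12128 tested genes higher and 3343 lower. Upper quartile and TPM scaling each called 1 heme gene higher and 1 lower. The shares of all tested genes were 21.1% higher and 11.9% lower after upper quartile scaling, and 19.7% and 5.93% on the TPM scale. PGRMC1, a heme-binding membrane protein, fell from 73.0 ± 2.59 to 59.4 ± 0.315 FPKM (SD, n = 3), a log2 fold change of -0.29 (limma adjusted p = 0.00134). ALAS1, the rate-limiting enzyme of heme synthesis outside red cells, fell from 36.1 ± 1.41 to 33.2 ± 0.767 FPKM (SD, n = 3), a log2 fold change of -0.11 (limma adjusted p = 0.0495) that turned to 0.010 on the TPM scale. UROD, uroporphyrinogen decarboxylase, had 32.9 FPKM at 0 Gy and 32.0 FPKM at 10 Gy and was not called.

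Of 29 genes of iron-sulfur cluster assembly and mitochondrial iron, 28 were tested, 10 were called lower and 1 higher, none by 1.3-fold, with a median log2 fold change of -0.13, beside 23.7% called lower and 11.9% called higher of all tested genes. On the TPM scale 3 were called lower and 2 higher, beside 5.93% and 19.7% of all genes tested there. Voom on recovered reads called 12 lower and 1 higher, beside 3343 lower and 1818 higher of all 12128 tested genes. NDOR1, a reductase of the cytosolic assembly pathway, was the gene called higher, with a log2 fold change of 0.18 (limma adjusted p = 0.00535). The 3 genes of this list with the highest levels were not called on the deposited scale, though voom called GLRX5 lower. CIAO2B, a cluster targeting factor, had 58.4 FPKM at 0 Gy and 55.2 FPKM at 10 Gy. SLC25A37, the mitochondrial iron importer mitoferrin 1, had 30.8 FPKM at 0 Gy and 29.1 FPKM at 10 Gy. GLRX5, a mitochondrial glutaredoxin, had 26.4 FPKM at 0 Gy and 23.9 FPKM at 10 Gy.

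**Figure D4:**
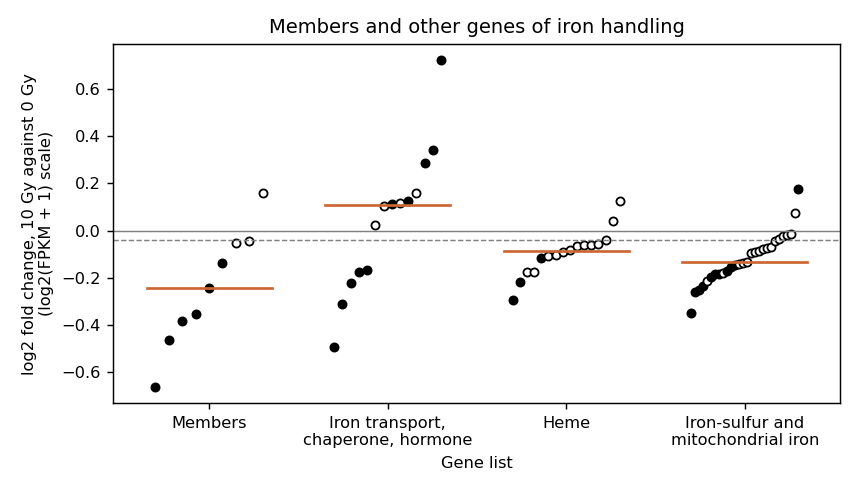
Log2 fold change (10 Gy against 0 Gy, on the log2(FPKM + 1) scale) of each tested gene among the 9 iron members and in lists of 14 transport, chaperone and hormone genes, 16 heme genes and 28 iron-sulfur and mitochondrial iron genes. Filled points have an adjusted p under 0.05, orange lines are list medians (-0.24, 0.11, -0.09 and -0.13) and the dashed line is the median of all tested genes (-0.04).

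FTL had the largest change among the members, and the tested genes whose log2(FPKM + 1) values followed it most closely over the 6 libraries were DEK, NQO1, SLC3A2, SRPRB and AATF, with Pearson's r of 0.998 to 0.999. This is a description over libraries that share their dose groups. NQO1, a quinone reductase, averaged 131 FPKM at 0 Gy and 91.2 FPKM at 10 Gy. SLC3A2, the heavy chain of the cystine transporter, averaged 73.2 FPKM at 0 Gy and 54.5 FPKM at 10 Gy.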

How the data were processed

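The 6 libraries of MDA-MB-231 RNA, 3 at 0 Gy and 3 at 10 Gy, were grouped by the dose in the sample labels. The authors deposited FPKM values from polyA-selected libraries. The submitters' processing notes name HISAT2 and GRCh38, and the counting program is not given in the sources used here. FPKM multiplied by gene length was a whole number of reads (within 0.01) for 100% of values above 0, after a scaling factor of 0.973 to 1.04 per library was allowed for (0.973 to 0.991 at 0 Gy and 1.03 to 1.04 at 10 Gy). Reads were used for depth, for the reads behind genes and for 1 alternative, voom, which took the depth behind the deposited values.

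The 12128 genes that averaged 1 FPKM or more were compared on log2(FPKM + 1), a scale that understates the change of low genes, with limma 3.58.1 in R 4.3.3 (eBayes with an intensity trend), and p-values were adjusted by Benjamini-Hochberg over all tested genes. Intervals are limma's 95% intervals. Ratios within a library were tested with the exact permutation test (two-sided) of scipy 1.17.1. The 1.3-fold limit follows the paper, and figures were drawn with matplotlib 3.10.9 in Python 3.11.15. The fit was tested on simulated data. Members and lists were chosen with earlier results of these data known. All 10 members are named, with, of each other list, called genes changed at least 1.3-fold (at most 6) and the 3 of highest level, the 5 genes most like the member with the largest change, and overlapping genes. Alternatives changed the pseudocount, the filter, the scaling, the replicate block, the libraries, the variance model, the gene set and the unit. A planned cell type marker is not reported here. Comparison of the members' protein sequences was not made here.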

Additional observations from a re-analysis of the deposited data

How the results depend on the processing

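FTH1, STEAP3, HMOX1 and ACO1 kept their direction and their call in all 17 alternative analyses. The number of iron members called was 6, and it ranged from 4 without the low filter to 7 with a minimum of 5 FPKM, with protein-coding genes alone or with voom. All genes called numbered 4317 of 12128 at first and 2912 of 31650 without the low filter. They numbered 3608 of 7262 with the minimum of 5 FPKM, 4692 of 10491 protein-coding genes and 5161 of 12128 with voom. For TFRC the call was lost without the low filter (-0.14, adjusted p = 0.0806), after upper quartile scaling (-0.047), on the TPM scale (-0.011) and with a replicate block (-0.14, adjusted p = 0.0748), all in limma. For FTL it was lost without the low filter (-0.66). IREB2 was called higher with a minimum of 5 FPKM (0.16), with protein-coding genes alone (0.16), after upper quartile scaling (0.24), on the TPM scale (0.30) and with voom (0.18). SLC11A2 turned to 0.036 after upper quartile scaling and to 0.074 on the TPM scale, and NCOA4 turned to 0.037 and 0.074. SLC40A1 moved to 0.39 on the TPM scale, where the same 1 was added to larger values. With nothing added, its mean FPKM at 10 Gy was 1.36 times that at 0 Gy. The cause of these shifts was not tested.

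Over all genes, the 1443 higher calls (11.9% of 12128 genes) became 874 with a minimum of 5 FPKM (of 7262 genes, a share of 12.04%), 2561 after upper quartile scaling (21.1% of 12135) and 3232 on the TPM scale (19.7% of 16391). The 2874 lower calls (23.7%) became 2734 with a minimum of 5 FPKM (37.6% of 7262 genes). They became 1815 without the filter (5.73% of 31650 genes), 1444 after upper quartile scaling (11.9%) and 972 on the TPM scale (5.93%). The 24 calls in the other 3 iron lists, with 14, 16 and 28 tested genes, became 14 without the filter and 15 under either of these scalings. Beside them, calls over all genes went from 4317 of 12128 to 2912 of 31650 without the filter. They went to 4005 of 12135 after upper quartile scaling and 4204 of 16391 on the TPM scale. With each library left out in turn, calls ranged from 2660 to 3993, higher calls from 852 to 1393, lower calls from 1808 to 2630 and calls in the other iron lists from 12 to 23, with the lowest values without 10 Gy replicate 1 or replicate 2. The log2 fold changes then ranged from -0.17 to -0.11 for TFRC and from 0.13 to 0.20 for SLC40A1, and with a library left out FTL ranged from -0.69 to -0.62. The replicate block called 3503 genes and 5 members and lost the TFRC call alone among the members. Same-numbered libraries did not deviate together (correlations -0.04, -0.03 and -0.10), and no library correlated best with its own number, so the numbers were not taken as pairs. Ratios within a library kept their sign in every alternative run on them. SLC40A1 rested on 36 to 91 reads per library.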

Other observations

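Further genes of iron handling moved with dose and were chosen after their values were seen. STEAP1, a relative of STEAP3, was called lower, at 11.4 ± 1.05 FPKM at 0 Gy and 8.99 ± 0.263 FPKM at 10 Gy (SD, n = 3), with a log2 fold change of -0.31 (limma adjusted p = 0.00893) that missed the threshold on the TPM scale (-0.21). FBXL5, the ubiquitin ligase subunit that targets iron regulatory protein 2 for degradation, had a log2 fold change of -0.16 (limma adjusted p = 0.0221) and was not called after upper quartile scaling (-0.078) or on the TPM scale (-0.046). HERC2, a ligase that acts on NCOA4, rose from 7.56 ± 0.840 to 9.84 ± 0.704 FPKM (SD, n = 3), with a log2 fold change of 0.34 (limma adjusted p = 0.0152), and was called higher on every scale tried. HFE, the hemochromatosis protein that binds the transferrin receptor, rose from 2.66 ± 0.192 to 3.46 ± 0.146 FPKM (SD, n = 3), with a log2 fold change of 0.29 (limma adjusted p = 0.00924), and was also called higher on every scale tried. SLC25A28, the mitochondrial iron importer mitoferrin 2, fell from 20.2 ± 1.24 to 15.6 ± 0.537 FPKM (SD, n = 3), with a log2 fold change of -0.35 (limma adjusted p = 0.00262), and was called lower on every scale tried.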
